A study of Rattus norvegicus with 6 samples.

Results

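The cytosolic ribosome is built from a large and a small subunit, and each subunit joins ribosomal RNA to a fixed set of proteins encoded by nuclear genes. The ribosomal protein genes were read here in cultured rat hippocampal astrocytes and neurons exposed to insulin. They were taken by symbol: Rpl or Rps followed by a digit, together with Rplp0, Rplp1, Rplp2 and Rpsa, without pseudogene symbols ending in -ps, symbols that hold the character _ and the Rps6k kinases. The rule took in 103 of 37183 symbols, 60 named for the large and 43 for the small subunit. By their names, 76 were the genes of the textbook ribosome, called canonical here (45 large, 31 small). A further 18 were numbered copies of such genes, 8 were paralogs with names of their own, and Rps19bp1 is a binding partner of Rps19 and not a ribosomal protein. The rule reads symbols and not values.

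The series held 6 libraries, 1 for each of 6 groups, so no difference has a replicate check. Primary cultures of hippocampal astrocytes were taken untreated at 0 h, at 6 h of 200 nM insulin and at 12 h of it, and primary hippocampal neurons had the same 3 groups. The control is called saline in the titles and untreated in the characteristics. The medium was changed 4 h before treatment, to 2% FBS with 5 mM glucose for astrocytes and to a serum-free medium with 1% of an insulin-free B27 supplement for neurons. Time since that change therefore differs between the control and the insulin libraries, and insulin and that time cannot be told apart. The 6 h and 12 h comparisons of a cell type share 1 control library. The values are log2 FPKM (fragments per kilobase of transcript, scaled to the size of the library), quantile-normalised by the authors, and levels are given below as FPKM on the linear scale. FPKM is scaled to transcript length, so levels of different genes can be set side by side. Where 3 values follow each other for a cell type, they are those of the control, of 6 h and of 12 h, in that order, and where 2 differences follow in brackets they are those of 6 h and of 12 h against the control. A difference is always one of log2 FPKM.

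Marker genes were read before the ribosomal genes. The 10 neuron markers summed to between 2.58 and 3.06 FPKM in the astrocyte-labelled libraries and to between 54.7 and 59.1 FPKM in the neuron-labelled ones. The 9 astrocyte markers went against the labels, with sums of 29.4 to 35.4 FPKM in the astrocyte-labelled and 339.9 to 379.8 FPKM in the neuron-labelled libraries. Smooth muscle and pericyte markers summed to between 424.8 and 504.1 FPKM in the astrocyte-labelled libraries, against 4.52 to 10.6 FPKM in the others. Tagln made most of the astrocyte-labelled sum, at 353.3 to 417.3 FPKM. Myh11 and Rgs5 of the same list were at 0.0088 FPKM or less there. Fibroblast markers summed to between 66.2 and 85.8 FPKM in the astrocyte-labelled libraries, and to between 0.0121 and 0.0273 FPKM in the others. Oligodendrocyte lineage markers summed to between 111 and 117.6 FPKM in the neuron-labelled libraries, and to between 3.625 and 3.95 FPKM in the others. Olig1 and Olig2 made most of the neuron-labelled sum, at 80.6 and 25.9 FPKM in the control. Mog and Cspg4 of the same list were higher in the astrocyte-labelled control, at 2.21 against 1.70 FPKM and 1.32 against 0.397 FPKM. Microglia and endothelium markers each summed to 0.141 FPKM or less in every library. Markers of more than 1 cell type were thus present under both labels, so the libraries are named astrocyte-labelled or neuron-labelled below. Fewer cells of a type and less RNA per cell cannot be told apart in bulk RNA. The number of symbols with a value was 22891, 23814 and 23898 in the astrocyte-labelled libraries, and 23927, 25510 and 25528 in the neuron-labelled ones. All libraries were given the same quantiles, so a library with more listed symbols has a higher value at the same rank.

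Ribosomal protein mRNAs are a textbook case of translational control. Most begin with a cytosine followed by a run of pyrimidines, the 5′ terminal oligopyrimidine (TOP) motif. Insulin acts through PI3K, AKT and mTORC1 on these messages: the cap-binding repressor LARP1 holds TOP mRNAs out of translation when mTORC1 is low. Rps6 itself is the classical substrate of the S6 kinases downstream of mTORC1. This control changes how much protein is made from an mRNA more than how much mRNA there is, and mRNA amount is what these libraries measured.

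The start sites are shown because the pyrimidine run is the feature that defines the TOP class, and the genes below are the stalk gene Rplp0 and the canonical genes whose level passed 2-fold in an insulin library. Each line gives 15 bases before the annotated start and 15 from it, in RefSeq assembly GRCr8, 5′ to 3′ on the gene's strand. Capitals mark an unbroken run of 5 or more bases, each C or T, that includes the annotated start base.
Rplp0 (GRCr8 chr12:46718376-46718405, minus strand): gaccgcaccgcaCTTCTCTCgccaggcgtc
Rps27a (GRCr8 chr14:107488927-107488956, minus strand): cctaaagggcggTTCCTTCgacccggagac
Rpl35a (GRCr8 chr11:81235007-81235036, minus strand): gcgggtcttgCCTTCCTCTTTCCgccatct
Rps9 (GRCr8 chr1:74430423-74430452, minus strand): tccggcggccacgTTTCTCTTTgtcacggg
Rps18 (GRCr8 chr20:4933730-4933759, plus strand): cacgtcacttccgCTCTCTCTTCCacagga
Rps6 (GRCr8 chr5:106420526-106420555, minus strand): gacgcctcctaggcggtcggctgtgtcaag
Rps28 (GRCr8 chr7:15311319-15311348, minus strand): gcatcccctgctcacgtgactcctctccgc
Rpl38 (GRCr8 chr10:100200420-100200449, plus strand): cttcgttctttttccgttgttcggtgctcg

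Rps27a, Rpl35a, Rps9 and Rps18 carried the run at the annotated start, and Rps6, Rps28 and Rpl38 did not. An annotated start can lie some bases from the one that cells use, and no match says only that these letters are not at this base. Of 61 canonical genes with a promoter entry, 38 (62.3%) had such a run, with a median length of 8 bases over the 61. Among all 27457 RefSeq promoters of the same length the share was 11.7%, and among 15 copies and paralogs with an entry it was 2 (13.3%). The search was on the gene's strand only, and no other motif was searched.

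The median level of canonical ribosomal protein mRNAs in the controls was 16.7 FPKM under the astrocyte label and 9.94 FPKM under the neuron label. The large subunit had a median of 16.9, 19.0 and 17.9 FPKM in the astrocyte-labelled libraries. Its neuron-labelled medians were 9.84, 12.5 and 14.04 FPKM. The small subunit had a median of 16.5, 18.1 and 15.9 FPKM in the astrocyte-labelled and 10.03, 11.35 and 12.7 FPKM in the neuron-labelled libraries. Both subunits thus had their lowest median in the neuron-labelled control. All members together held 1.34%, 1.45% and 1.36% of the summed FPKM in the astrocyte-labelled libraries and 0.949%, 1.03% and 1.07% in the neuron-labelled ones. The -ps rows are not in these medians and shares, although 11 of them were at 50 FPKM or more in all 6 libraries. With the -ps rows counted in, the share of the summed FPKM would therefore be larger than given here. The listed mRNA levels of the 76 canonical genes ran in every library from below 1 FPKM to the level of Rps4x, the highest, given below. Some of the lowest have a far higher -ps row, also given below.

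**Figure D1:**
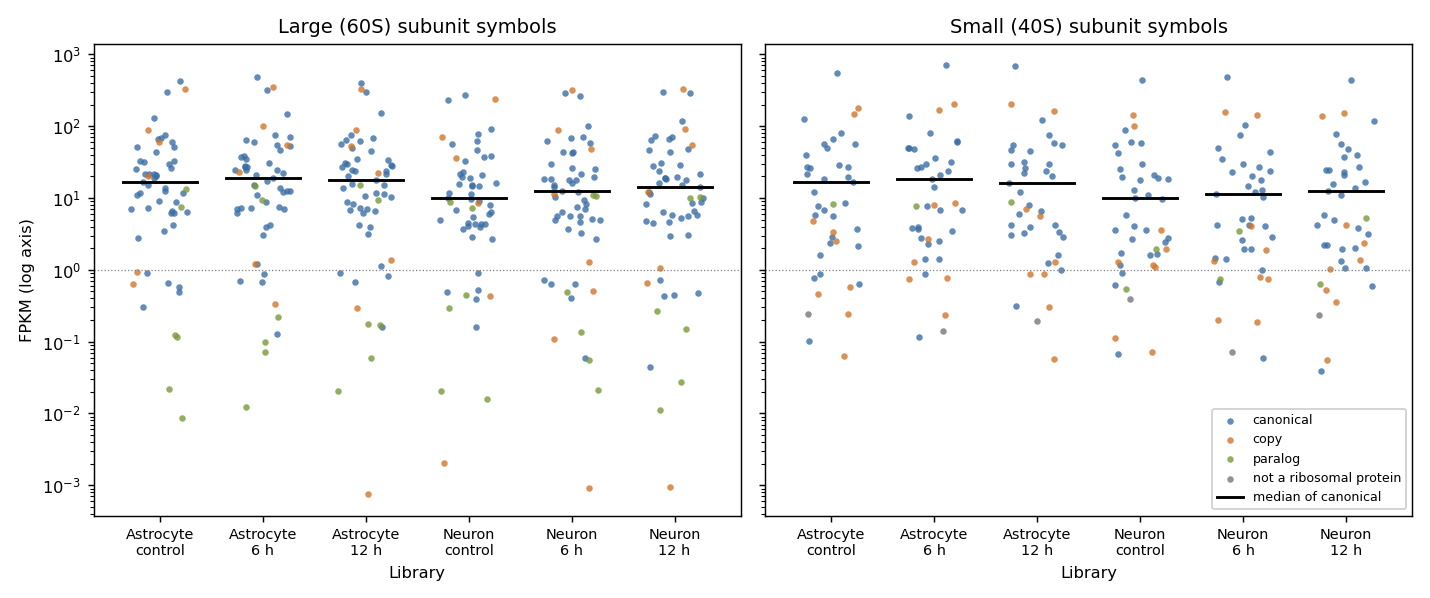
FPKM (log axis) of large-subunit and small-subunit symbols in each of the 6 libraries, 1 point per symbol with a value, coloured by class, with a bar at the median of the canonical genes and a dotted line at 1 FPKM. The canonical median is lowest in the neuron-labelled control, at 9.84 FPKM for the large and 10.03 FPKM for the small subunit, and in each library canonical points lie on both sides of 1 FPKM.

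Of the 103 members, 98 had a value in all 6 libraries, 78 were at 1 FPKM or more in every library, and 16 were below 1 FPKM in all of them. Rpl31l3 was blank throughout, and Rpl31l1, Rpl34l1, Rpl30l1 and Rps4y2 were blank in some libraries. Among the 76 canonical genes 67 were at 1 FPKM or more in every library and 5 were below it in all.

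The acidic stalk of the large subunit recruits the translation factors that hydrolyse GTP, and its members are Rplp0, Rplp1 and Rplp2. Rplp1 stood at 301.9, 321 and 302 FPKM in the astrocyte-labelled libraries, and at 230.4, 261 and 287 FPKM in the neuron-labelled ones. Rplp0, the base of the stalk, stood at 131, 149 and 150.3 FPKM, and at 91.6, 100.8 and 117 FPKM. Rplp2 was listed at 0.304, 0.127 and 0.158 FPKM, and at 0.160, 0.0599 and 0.0437 FPKM, below 1 FPKM everywhere. Rplp0 and Rplp1 were thus among the highest members and Rplp2 among the lowest, and in the neuron-labelled libraries Rplp0 and Rplp1 were lowest in the control and highest at 12 h.

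Rpl41, which encodes one of the shortest known proteins, was the highest large-subunit symbol, with a mean of 362 FPKM over the 6 libraries. It stood at 430.1, 479 and 401 FPKM in the astrocyte-labelled libraries and at 272, 287 and 303 FPKM in the neuron-labelled ones. The copy Rpl31l4 (mean 318 FPKM) and Rplp1 (mean 284 FPKM) came next. The lowest large-subunit symbols were Rpl31l1, at 0.00204 FPKM or less wherever it had a value, and the paralogs Rpl3l, known from striated muscle, with a mean of 0.0177 FPKM, and Rpl39l, known from testis, with a mean of 0.0803 FPKM. Rpl10l, a testis paralog, reached at most 0.489 FPKM, and Rpl36al at most 0.298 FPKM. The paralogs with a tissue of their own elsewhere were therefore at low levels in every library.

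Rps4x, the X-linked small-subunit gene, was the highest small-subunit symbol, at 549.6, 702 and 683 FPKM in the astrocyte-labelled and 433, 478 and 446 FPKM in the neuron-labelled libraries. The copies Rps10l1 (mean 172 FPKM) and Rps15al4 (mean 144 FPKM) followed. Rps4y2, named for the Y chromosome but placed on chromosome 4 in RefSeq GRCr8, was blank in the astrocyte-labelled libraries. It stood at 0.534, 0.747 and 0.629 FPKM in the neuron-labelled ones. The lowest small-subunit symbols were the copy Rps17l, with a mean of 0.114 FPKM, Rps19, with a mean of 0.117 FPKM, and Rps19bp1, with a mean of 0.211 FPKM. Rps19 is a core protein of the small subunit and the first gene tied to Diamond-Blackfan anaemia, and it was at 0.314 FPKM or less in all 6 libraries. Rpsa, known also as the laminin receptor precursor, varied little, at 56.9, 63.2 and 58.0 FPKM in the astrocyte-labelled and 55.0, 49.98 and 56.7 FPKM in the neuron-labelled libraries.

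Some ribosomal proteins are made from symbols that the naming rule does not take in. Fau, a fusion of a ubiquitin-like protein to a small-subunit protein, stood at 28.9, 30.5 and 26.6 FPKM in the astrocyte-labelled and 23.3, 26.6 and 28.8 FPKM in the neuron-labelled libraries. Gnb2l1, the older symbol of Rack1, the scaffold protein on the small subunit, stood at 32.0, 35.5 and 34.2 FPKM, and at 19.4, 20.2 and 22.2 FPKM. In the neuron-labelled libraries both were lowest in the control and highest at 12 h.

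Ribosomal protein genes have many processed pseudogenes, intronless copies of the mRNA set into the genome, and reads can match both. Every one of the 76 canonical genes had at least 1 -ps symbol in RefSeq GRCr8, with a median of 11 and a highest number of 36, for Rps2. Among the deposited rows, 30 canonical genes had a -ps or copy row beside their own and 46 had none. In 17 of the 30 a further row had a higher mean FPKM than the named gene. Of 37 -ps rows, 20 reached 1 FPKM in at least 1 library and 11 were at 50 FPKM or more in all 6. In RefSeq, 12 of 14 copies found there spanned under 1000 bases and none of the 76 canonical genes did, with medians of 504.5 and 3134 bases. How the authors' counting divided reads between such loci is not given in the sources used here, and no sequence of the copies was compared, so the single-row values of these genes are uncertain.

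The gap between a gene and its copy was largest for genes listed near or below 1 FPKM. Rps28, at the mRNA exit of the small subunit, had a mean of 1.12 FPKM beside 316 FPKM for Rps28-ps1. Rpl38, a large-subunit gene known for a role in the translation of Hox mRNAs, had a mean of 0.809 FPKM beside 201 FPKM for Rpl38-ps1. Rpl34 had 0.697 FPKM beside 240 FPKM for Rpl34-ps1, and Rpl36a had 0.632 FPKM beside 187 FPKM for Rpl36a-ps2. Named copies showed the same order: Rps10 had 2.74 FPKM beside 172 FPKM for Rps10l1, Rps15a had 2.76 FPKM beside 144 FPKM for Rps15al4, and Rpl31 had 6.15 FPKM beside 318 FPKM for Rpl31l4. The order was the other way for Rpl41, at 362 FPKM beside 8.50 FPKM for Rpl41-ps1, and for Rps19 both rows were low, at 0.117 FPKM beside 0.323 FPKM for Rps19l1. Rpl37a had no row under its own symbol, only -ps rows, of which Rpl37a-ps3 had a mean of 176 FPKM. Of 20 canonical genes with a mean below 5 FPKM, 10 had a -ps or copy row at any level, beside 30 of all 76. That row was the lower one for Rpl17 (4.00 beside 0.0935 FPKM) and Rps12 (2.61 beside 1.495 FPKM).

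**Figure D2:**
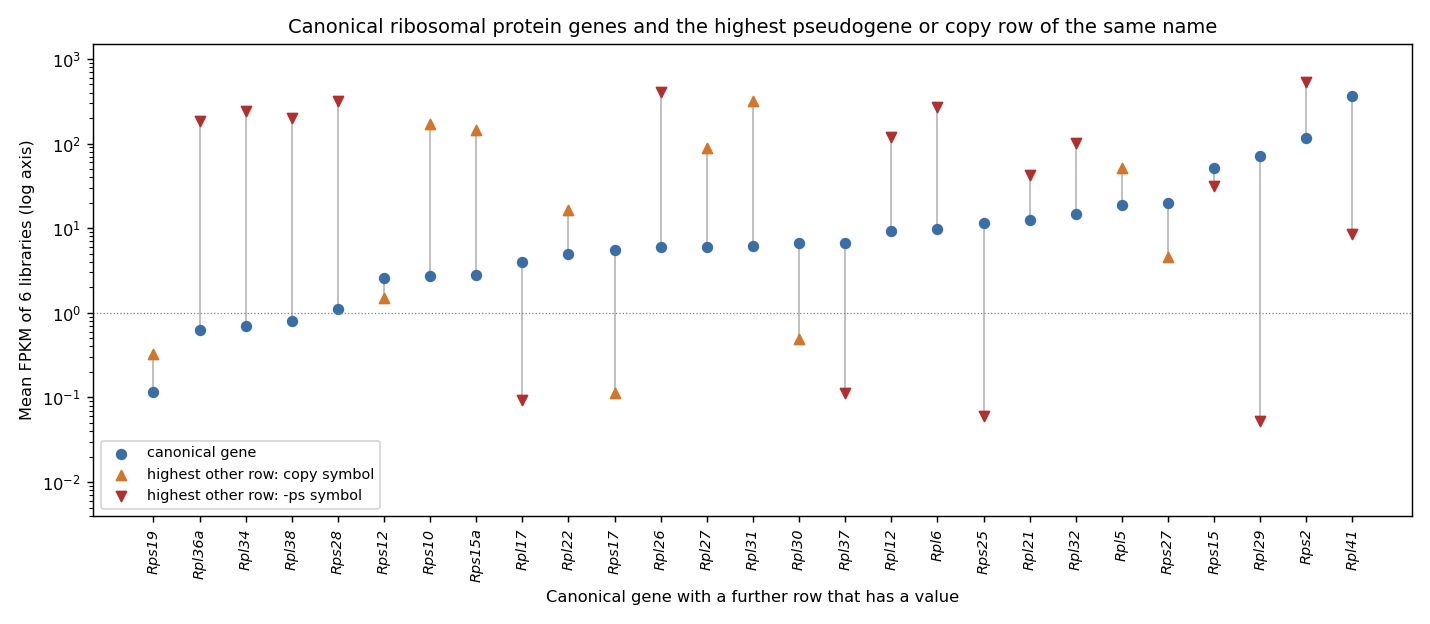
Mean FPKM over the 6 libraries (log axis) of the 27 canonical genes that have a further row with a value, as circles, joined to the highest copy (upward triangle) or -ps row (downward triangle) of the same name, ordered by the level of the canonical gene. For Rps28, Rpl38, Rpl34 and Rpl36a the further row stands above 180 FPKM while the gene itself lies near or below 1 FPKM.

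Between the controls, ribosomal protein mRNAs were higher in the astrocyte-labelled library. Of 68 canonical genes compared, 61 were above 0 in the difference of log2 FPKM (astrocyte-labelled minus neuron-labelled), against 45.9% of 7146 genes. Genes were compared where neither library was blank and the higher of them reached 1 FPKM. The canonical median difference was 0.56, with 0.60 for the large and 0.47 for the small subunit, against -0.10 over all genes. The difference was broad and mostly under 2-fold: 8 of 82 members were 2-fold or more higher, beside 18.7% of all genes, and 1 was 2-fold or more lower, beside 21.9%. The cell-type marker sums given above differ between the same libraries, as do the listed symbols, and their part in this difference was not tested. Ribosomal RNA rows differed between the controls as well: Rn18s stood at 13.005 FPKM under the astrocyte and 234 FPKM under the neuron label (-4.17), Rn28s at 4.09 and 25.6 FPKM (-2.65) and Rn5-8s at 5.93 and 17.2 FPKM (-1.54). The precursor row Rn45s, by far the highest of the 4, went the other way, at 11770 and 7795 FPKM (0.59). Together the 4 rows held 4.08% of the summed FPKM under the astrocyte and 2.69% under the neuron label. The part of these rows was not tested either.

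The small-subunit paralog Rps27l, a p53-inducible gene, had the largest difference between the controls, at 8.35 FPKM under the astrocyte and 1.95 FPKM under the neuron label (difference 2.10). Rps6 followed at 8.49 and 2.67 FPKM (1.67), and the copy Rps15al2 at 4.81 and 1.97 FPKM (1.29). In the large subunit the copy Rpl22l2 stood at 20.4 and 8.45 FPKM (1.27), Rpl30 at 8.68 and 3.72 FPKM (1.22) and Rpl22 at 6.15 and 2.83 FPKM (1.12). Rpl12, at 11.03 and 5.51 FPKM (1.00), and the copy Rps12l3, at 2.54 and 1.15 FPKM, also reached 2-fold. These 8 were the members that were higher by that size. Rpl22l1, the paralog that can take the place of Rpl22, stood at 13.5 and 7.22 FPKM (0.91), so both genes of the pair were lower in the neuron-labelled control.

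Of the 82 members compared, 11 were lower in the astrocyte-labelled control. The copy Rps12l2 stood at 0.467 and 1.28 FPKM (-1.46) and passed 2-fold. The copy Rps15al1 (-0.96) and Rps28 (-0.85) followed in the small subunit without reaching it. Rps12l2, Rps15al1 and Rps28 were below 1 FPKM in the astrocyte-labelled control and were compared through the neuron-labelled one. Rpl35a (-0.67), Rpl17 (-0.52) and the paralog Rpl7l1 (-0.23) were the lowest in the large subunit. Rpl7l1 works in ribosome assembly in the nucleolus, and its levels in all libraries lay between 7.46 and 10.9 FPKM.

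After 6 h of insulin the astrocyte-labelled library showed a small shift of ribosomal protein mRNAs and a few larger single-gene differences at low levels. The 6 h library was higher than the control for 58 of 70 canonical genes, against 63.9% of 6206 genes. The canonical median difference was 0.15, with 0.11 for the large and 0.22 for the small subunit, beside 0.09 over all genes. Of 84 members, 5 rose 2-fold or more, beside 1.05% of all genes, and 2 fell by as much, beside 0.886%. Of the 5, Rps28, Rpl38 and Rps15al1 were below 1 FPKM in the control, so they were compared only because the 6 h library reached it. Among genes at 5 FPKM or more in both libraries, none of 57 canonical genes passed 2-fold in either direction, beside 0.904% of 1660 genes. The members past 2-fold were therefore all below 5 FPKM in at least 1 of the libraries.

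Ribosomal RNA rows differed between the astrocyte-labelled libraries too. Rn18s stood at 13.005, 3.24 and 5.62 FPKM (-2.01 and -1.21) and Rn28s at 4.09, 1.35 and 2.005 FPKM (-1.602 and -1.03), so both fell 2-fold at both times. Rn5-8s stood at 5.93, 4.03 and 3.42 FPKM, and the precursor row Rn45s at 11770, 7752 and 13030 FPKM. The 4 rows together held 4.08%, 2.60% and 4.36% of the summed FPKM. Their part in the ribosomal protein differences was not tested.

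At 12 h the astrocyte-labelled library was closer to its control. The difference was above 0 for 49 of 70 canonical genes, against 67.0% of 6221 genes, with a canonical median of 0.08 beside 0.10 over all genes. Of 83 members 1 rose 2-fold, beside 0.611% of all genes, and 1 fell, beside 0.916%. With the difference centred on the median of all genes compared, 1 rose and 3 fell, and the median over all members went from 0.10 to -0.006. Among genes at 5 FPKM or more in both libraries none of 57 canonical genes passed 2-fold, beside 0.541% of 1664 genes. From 6 h to 12 h 45 of 71 canonical genes were lower, against 46.3% of 6260 genes, with a median of -0.07 beside 0.02. In that step the copy Rps12l3 was the member that fell 2-fold, from 2.69 to 1.27 FPKM, beside 0.511% of all genes, and none of 85 rose, beside 0.256%.

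The order of the 3 astrocyte-labelled libraries shows the same shape for single genes. Among canonical genes at 5 FPKM or more in all 3, the 6 h library was the highest for 39 of 57, against 39.3% of 1625 genes. That was so for 17 of 20 small-subunit and 22 of 37 large-subunit genes. Both insulin libraries lay above the control for 37 of 57 canonical genes, against 51.3%, and both below it for 6, against 20.4%. The control was the lowest and 12 h the highest for 9 of 57, against 24.9%. Examples chosen after their values were seen are Rps20, at 39.8, 49.96 and 46.0 FPKM, and Rpl18, at 18.9, 30.6 and 24.0 FPKM. Each was highest at 6 h and stayed within 2-fold of the control.

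Most ribosomal protein mRNAs were higher after insulin in the neuron-labelled libraries, by small amounts, and with a higher median in the large subunit. At 6 h 57 of 69 canonical genes were above the control, against 68.1% of 6610 genes, and the canonical median difference was 0.24 beside 0.14 over all genes. At 12 h 59 of 69 were above it, against 66.1% of 6641 genes, with a median of 0.32 beside 0.14. The large-subunit median was 0.25 at 6 h and 0.36 at 12 h, with 37 and 38 of 40 genes above 0. The small-subunit median was 0.16 and 0.18, with 20 and 21 of 29 genes above 0. The difference between the subunits was not tested.

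Changes of 2-fold were few, among the members as among all genes. At 6 h 1 of 84 members rose by that size, beside 1.6% of all genes, and 2 fell, beside 1.29%. At 12 h 3 of 84 rose, beside 2.39%, and 2 fell, beside 1.45%. Among canonical genes at 5 FPKM or more in both libraries 1 of 47, Rps27a, passed 2-fold at 6 h, beside 1.84% of 1737 genes, and none of 47 did at 12 h, beside 1.99% of 1705 genes. Between 6 h and 12 h 52 of 69 canonical genes were higher at 12 h, against 48.3% of 6662 genes, with a median of 0.09 beside -0.01. In that step 1 of 83 members rose, beside 0.555%, and none fell, beside 0.51%.

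The order of the neuron-labelled libraries was shared by many members. Among canonical genes at 5 FPKM or more in all 3, the control was the lowest and 12 h the highest for 34 of 47, against 33.2% of 1684 genes. This was so for 25 of 30 large-subunit and 9 of 17 small-subunit genes. Both insulin libraries lay above the control for 39 of 47, against 57.9%, and both below it for 4, against 24.6%. The 6 h library was the highest for 5 of 47, against 34.9%. Examples chosen after their values were seen are Rpl3, of the peptidyl transferase centre, at 45.9, 58.0 and 65.9 FPKM, Rpl4, which lines the exit tunnel, at 32.6, 43.5 and 48.8 FPKM, and Rpl36, at 19.9, 25.1 and 29.0 FPKM. Rpl5 and Rpl11, which bind Mdm2 when ribosome assembly is disturbed, stood at 14.5, 16.3 and 18.3 FPKM and at 7.90, 9.30 and 9.87 FPKM. None of these 5 reached 2-fold.

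The neuron-labelled libraries differed in other ways too. The number of listed symbols was 23927 in the control and 25510 and 25528 after insulin. Ribosomal RNA rows that the depletion step should remove were far higher in the control: Rn18s stood at 234 FPKM there and at 10.7 and 4.65 FPKM at 6 h and 12 h, Rn28s at 25.6, 3.09 and 2.05 FPKM, and Rn5-8s at 17.2, 1.82 and 0.899 FPKM (-3.24 and -4.26). The precursor row Rn45s stood at 7795, 5176 and 6418 FPKM. Smooth muscle and pericyte markers summed to 4.52, 6.72 and 10.6 FPKM, and neuron markers to 54.7, 59.1 and 55.9 FPKM. Their part in the ribosomal protein differences was not tested. With the difference centred on the median of all genes compared, the median over all members at 12 h was 0.18 in place of 0.32, still above 0.

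**Figure D3:**
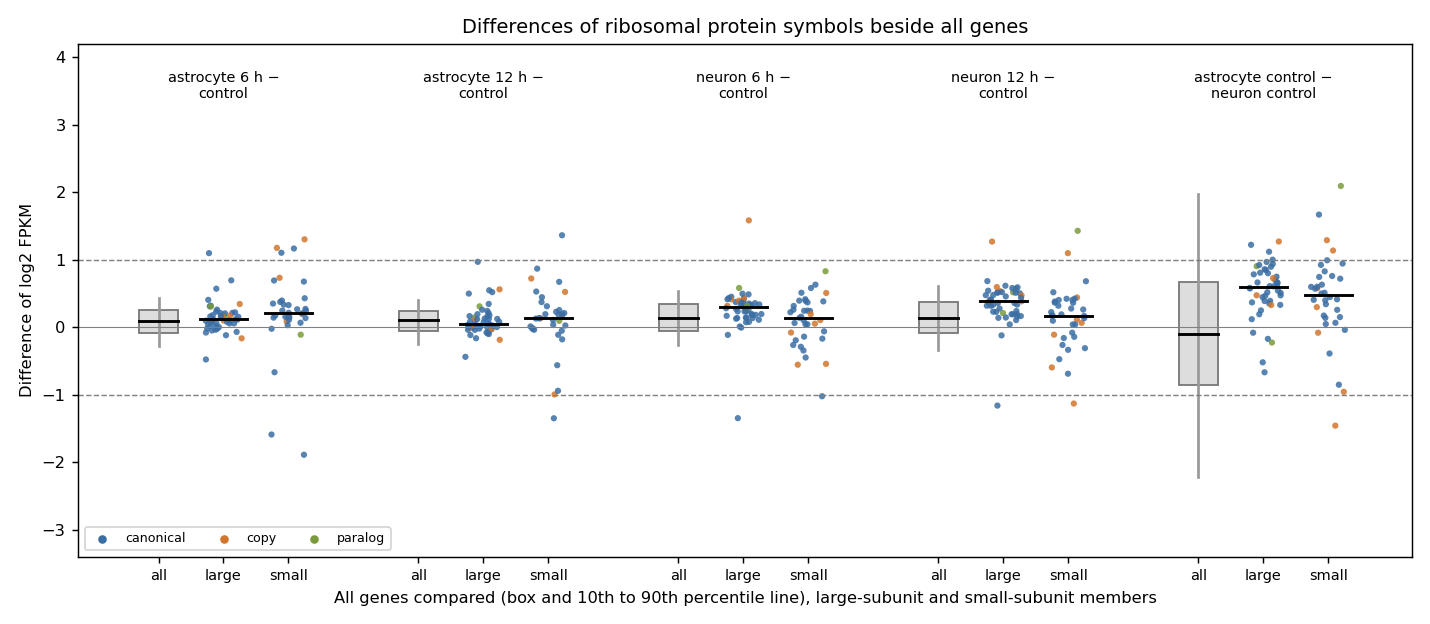
Difference of log2 FPKM in 5 comparisons, with all genes compared as a box (quartiles and median) and a line from the 10th to the 90th percentile, and each large-subunit or small-subunit member as a point with a bar at their median. The dashed lines mark 2-fold. The large-subunit points lie mostly above 0 in the neuron-labelled comparisons, and the members of both subunits lie mostly above 0 between the controls.

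In all, 13 members passed 2-fold against their control in an insulin library, 7 of them canonical. In the astrocyte-labelled libraries 7 of 85 members compared at either time did so, beside 2.66% of 6363 genes. Under the neuron label 6 of 84 did so, beside 4.77% of 6776 genes. None of the 83 members compared in both cell types passed it in both, and of all 5207 genes compared in both 40 did so. Whether a member's change differed between the cell types was not tested.

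Rps6, the S6 kinase substrate, stood at 8.49, 2.29 and 3.34 FPKM in the astrocyte-labelled libraries and at 2.67, 4.13 and 2.22 FPKM in the neuron-labelled ones. The astrocyte-labelled control was thus the highest of the 6 libraries, and the other 5 lay between 2.22 and 4.13 FPKM. The difference from that control was -1.89 at 6 h and -1.35 at 12 h. The 6 h fall was the largest against a control among members that reached 1 FPKM in at least 1 of the libraries compared. RefSeq lists 11 -ps symbols for Rps6.

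Rps9, a protein near the mRNA entry channel of the small subunit, stood at 7.67, 2.55 and 4.00 FPKM in the astrocyte-labelled and at 5.78, 4.24 and 4.17 FPKM in the neuron-labelled libraries. Against the astrocyte-labelled control it fell at 6 h (-1.59), and its difference was -0.94 at 12 h. In both cell types the control was the highest library. RefSeq lists 16 -ps symbols for Rps9.

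Rps18, at the head of the small subunit, went the other way. It stood at 1.62, 3.48 and 4.17 FPKM in the astrocyte-labelled libraries and rose at 6 h (1.11) and at 12 h (1.36). Its neuron-labelled values were 1.66, 1.48 and 1.32 FPKM (-0.17 and -0.33). The 2 controls stood at nearly the same level, and the 2 astrocyte-labelled insulin libraries stood above all the others.

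Rps28 rose at 6 h in the astrocyte-labelled libraries, at 0.638, 1.43 and 0.997 FPKM (1.17 and 0.65). Rpl38 did likewise, at 0.570, 1.22 and 1.12 FPKM (1.10 and 0.97). The neuron-labelled values were 1.15, 1.43 and 1.04 FPKM for Rps28 and, for Rpl38, 0.893, 0.626 and 0.427 FPKM. Both rows lie near or below 1 FPKM. Their highest -ps rows had means over the 6 libraries of 316 FPKM (Rps28-ps1) and 201 FPKM (Rpl38-ps1). With the -ps and copy rows added in, Rps28 had 311, 397 and 366 FPKM in the astrocyte-labelled libraries (0.35 and 0.23), and Rpl38 had 160.1, 223 and 213 FPKM (0.48 and 0.41). Added up in this way neither gene passed 2-fold in the astrocyte-labelled libraries. The neuron-labelled Rpl38 had 195, 224 and 251 FPKM when added up, so the differences of its own row below 1 FPKM, -0.51 and -1.06, turned to 0.20 and 0.36.

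Adding the rows turned the sign for other genes too. Of 27 canonical genes with a valued further row, the sum turned the sign of 4 at 6 h and 8 at 12 h against the astrocyte-labelled control, and of 6 and 8 against the neuron-labelled one. The named gene's own level set no floor in these counts. Examples chosen after their values were seen are neuron-labelled. Rpl21 went from 0.45 and 0.62 on its own row to -0.49 and -0.26 with the rows added, at 54.5, 38.8 and 45.6 FPKM. Rpl32 went from 0.30 and 0.28 to -0.19 and -0.036, and Rps15 from 0.065 and 0.18 to -0.18 and -0.10.

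Rps27a, which encodes ubiquitin fused to a small-subunit protein, was the most abundant of the members past 2-fold. It stood at 79.7, 50.3 and 54.0 FPKM in the astrocyte-labelled and at 60.4, 29.8 and 37.5 FPKM in the neuron-labelled libraries. The control was the highest library in both cell types. The difference was -0.67 and -0.56 in the first and -1.02 and -0.69 in the second, so 2-fold was reached only at 6 h in the neuron-labelled library. RefSeq lists 29 -ps symbols for Rps27a.

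Rpl35a, a large-subunit gene mutated in some cases of Diamond-Blackfan anaemia, stood at 6.78, 2.66 and 3.03 FPKM in the neuron-labelled libraries and fell at 6 h (-1.35) and at 12 h (-1.16). In the astrocyte-labelled libraries it stood at 4.27, 3.07 and 3.15 FPKM (-0.48 and -0.44). Here too the control was the highest library in both cell types.

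Rps27l stood at 1.95, 3.48 and 5.27 FPKM in the neuron-labelled libraries and rose at 12 h (1.43), after a difference of 0.83 at 6 h. In the astrocyte-labelled libraries it was at 8.35, 7.74 and 8.92 FPKM, above every neuron-labelled value. The other paralogs at 1 FPKM or more stayed within 2-fold. Rpl22l1 stood at 13.5, 14.7 and 14.97 FPKM in the astrocyte-labelled and at 7.22, 10.8 and 10.4 FPKM in the neuron-labelled libraries. Rpl7l1 stood at 7.46, 9.23 and 9.25 FPKM, and at 8.72, 10.9 and 10.1 FPKM.

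**Figure D4:**
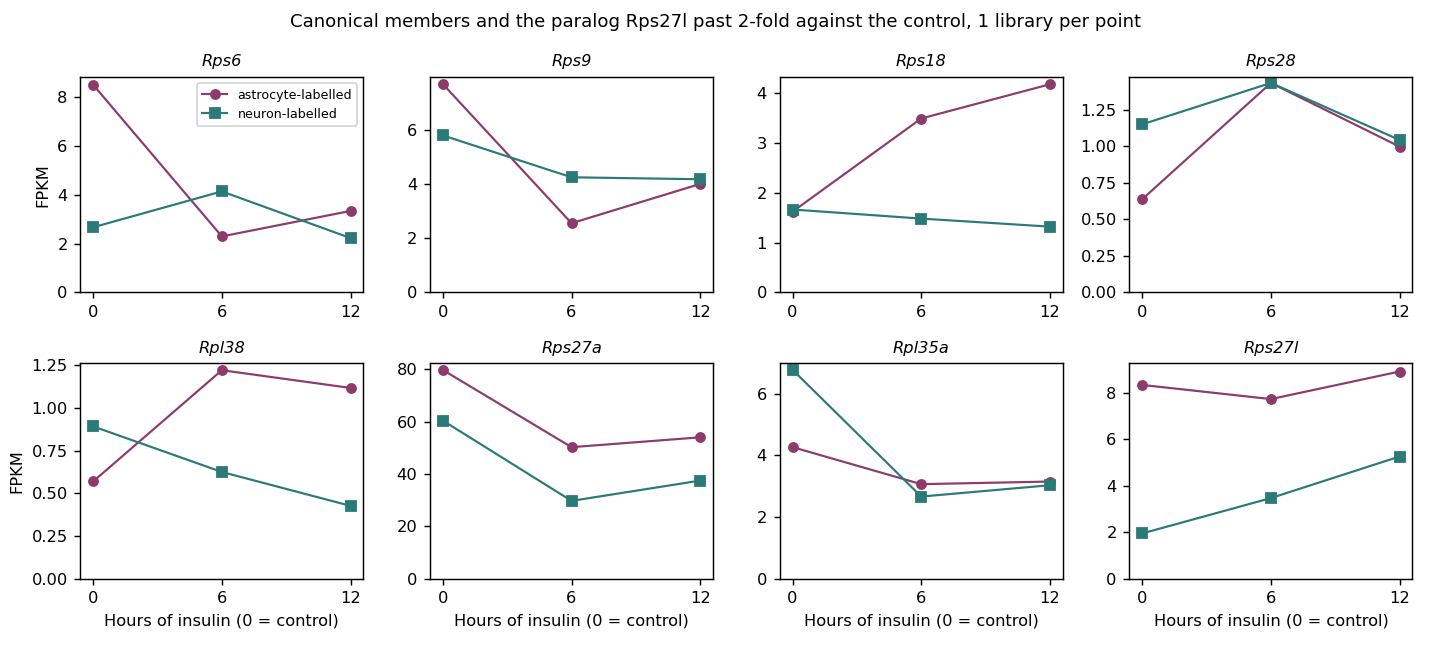
FPKM (linear axis from 0) of the 7 canonical genes and the paralog Rps27l that passed 2-fold against a control, by hours of insulin, with circles for the astrocyte-labelled and squares for the neuron-labelled libraries and 1 library per point. Rps6 and Rps9 are highest in the astrocyte-labelled control, Rps27a and Rpl35a are highest in the control of each cell type, and Rps18 rises in the astrocyte-labelled libraries from 1.62 to 4.17 FPKM.

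The remaining 5 were numbered copies, assigned to their parent by name alone. Rps27l3 stood at 3.41, 8.42 and 5.63 FPKM in the astrocyte-labelled libraries (1.30 at 6 h) and Rps15al1 at 0.569, 1.29 and 0.881 FPKM (1.18 at 6 h). In the neuron-labelled libraries Rpl31l2 stood at 0.433, 1.30 and 1.05 FPKM (1.59 and 1.27), Rps15al2 at 1.97, 1.86 and 4.21 FPKM (1.10 at 12 h), and Rps12l3 at 1.15, 0.792 and 0.526 FPKM (-1.13 at 12 h). All 5 were below 5 FPKM in at least 1 of the libraries compared. Rps15al1 and Rpl31l2 were below 1 FPKM in the control, and Rps12l3 was below it at 12 h. Each of these was compared only because the other library reached 1 FPKM. Rps15al2 was also the member that rose between 6 h and 12 h in the neuron-labelled libraries. The abundant copies stayed within 2-fold: Rpl31l4 stood at 332, 356 and 327 FPKM and at 239, 323 and 331 FPKM, and Rps15al4 at 150.1, 167 and 165 FPKM and at 100.4, 143 and 136 FPKM.

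Canonical genes with and without a pyrimidine run at the annotated start were set side by side. At 6 h in the astrocyte-labelled libraries the median difference was 0.15 for 36 canonical genes with the run and 0.15 for 20 without it, and at 12 h it was 0.10 and 0.10. In the neuron-labelled libraries it was 0.20 and 0.24 at 6 h and 0.27 and 0.32 at 12 h, for 36 and 19 genes. Between the controls it was 0.47 and 0.67, for 35 and 19 genes. The run was searched at the annotated start, so a gene without it here may begin with one at the start its cells use.

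Other genes of the translation machinery were read beside the ribosomal proteins. Of 26 translation factors and other TOP genes, 22 were found, and the 21 compared had a median difference of 0.08 and 0.14 at 6 h and 12 h in the astrocyte-labelled and 0.17 and 0.27 in the neuron-labelled libraries. The medians over all genes, for this list and those below at the floor of 1 FPKM, were 0.09 and 0.10, and 0.14 and 0.14. Among the 21, 1 passed 2-fold after insulin: Gas5, the non-coding host gene of small nucleolar RNAs. Gas5 stood at 8.32, 15.4 and 19.7 FPKM in the astrocyte-labelled libraries and rose at 12 h (1.24), beside 0.611% of 6221 genes. Under the neuron label it stood at 7.43, 10.5 and 7.86 FPKM. Between the controls Eef1g, a subunit of the elongation factor complex, was higher in the astrocyte-labelled library, at 25.7 and 12.2 FPKM (1.07).

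Ribosome assembly genes had larger medians than the ribosomal proteins. Of 40 listed, 37 were found. In the astrocyte-labelled libraries the median difference was 0.37 at 6 h, with 24 of 25 genes above 0, and 0.36 at 12 h, with 24 of 26. In the neuron-labelled libraries it was 0.39, with 20 of 21 above 0, and 0.41, with 20 of 22. Against a control 0 of those compared passed 2-fold, beside 0.611% to 2.39% of all genes in each direction, and nothing is read from that count. The median level of the list was 1.22 and 1.15 FPKM in the controls. Fbl and Nop2, for example, were below 1 FPKM in the astrocyte-labelled control and were compared through the insulin libraries. At 5 FPKM or more in both libraries 5 genes were left in each comparison with a control. Their medians were 0.29 and 0.08 (astrocyte-labelled) and 0.56 and 0.62 (neuron-labelled). Canonical medians at that floor were 0.15 and 0.04, and 0.20 and 0.33. Between 6 h and 12 h Ebna1bp2, a nucleolar assembly factor, rose in the neuron-labelled libraries, which stood at 0.785, 0.468 and 1.01 FPKM (1.11 for that step). It was compared in that step only because the 12 h library reached 1 FPKM. Under the astrocyte label it was at 0.282, 0.211 and 0.183 FPKM. Nop56, of the snoRNA particles that methylate ribosomal RNA, stood at 5.94, 9.28 and 8.53 FPKM in the astrocyte-labelled and 7.61, 10.02 and 8.95 FPKM in the neuron-labelled libraries. Ddx21, a nucleolar RNA helicase, stood at 3.37, 4.51 and 4.41 FPKM, and at 1.98, 3.72 and 3.83 FPKM (0.91 and 0.95). Between the controls the list had a median of 0.07. Tcof1, a nucleolar factor of ribosomal RNA transcription, was higher in the astrocyte-labelled control, at 1.17 and 0.436 FPKM (1.43), and was compared through that library. Whether the list differs from the ribosomal proteins was not tested.

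Proteins of the mitochondrial ribosome are encoded by a separate family, with 72 symbols here. At 6 h and 12 h, 52 and 49 of them were compared in the astrocyte-labelled and 52 and 53 in the neuron-labelled libraries. Their median difference was 0.18 and 0.05 in the first and 0.21 and 0.18 in the second. Between the controls it was -0.32 for the 51 compared, so the median of this family was lower in the astrocyte-labelled control while the cytosolic one was higher. Mrpl53 fell in the astrocyte-labelled libraries, at 1.00, 0.336 and 0.341 FPKM (-1.57 and -1.55). It was compared only because the control reached 1 FPKM. Mrpl15 was lower in the astrocyte-labelled control, at 1.47 against 3.07 FPKM (-1.06).

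Of 12 listed regulators of translation, 11 were found, and between 5 and 7 could be compared. Eif4e, the cap-binding protein, stood at 1.34, 2.56 and 2.48 FPKM in the neuron-labelled libraries (0.93 and 0.89) and at 1.495, 1.94 and 1.98 FPKM in the astrocyte-labelled ones. Larp1, the TOP mRNA repressor, stood at 1.53, 1.76 and 1.74 FPKM, and at 1.47, 1.89 and 1.96 FPKM in the neuron-labelled libraries. Between the controls Eif4ebp2, which holds back the cap-binding protein, was lower in the astrocyte-labelled control, at 0.766 and 2.03 FPKM (-1.41). Only the neuron-labelled control brought it past 1 FPKM.

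The libraries hold no replicates and no counts, so the spread between cultures and the counting error of any of these values are unknown. Single genes at low levels and genes with -ps or copy rows carry the least certain values.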

How the data were processed

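Total RNA of 6 cultures was depleted of ribosomal RNA and sequenced with a strand-specific kit, per the labels' protocols. The values are log2 FPKM by gene symbol in a table deposited by the authors, in which all 6 libraries were brought to the same quantiles. The log, the FPKM unit and the quantile step are in the table's name, and base 2 was settled from the values. The pre-rRNA row Rn45s, 8.679 kb long in RefSeq, reached 13.67, which is 113100 fragments of the unit's library total in base 2 and 7502000, above the total itself, as a natural log. Per the submitters' processing notes, the build was Rnor 6.0 and the tools were Partek 6.5 and bcl2fastq 2.17.1.14. Which aligner and annotation were used is not given in the sources used here. Counts were not used, so depth is unknown and no counting interval is given.

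The table had 37185 rows and 37183 symbols. For 2 repeated symbols the row of higher mean entered, and a blank was read as no value. Unused per-sample columns numbered 0. Groups came from the labels and columns were matched through the description labels. A difference is that of log2 FPKM on the deposited scale with no pseudocount. It was computed for genes that were blank in neither library and reached 1 FPKM in 1 or both, and a gene was called at 2-fold, a difference of 1 or more in size. With 1 library per group there is no test and no error estimate. Each list is described by its counts and median beside those of all genes. "Rose" and "fell" are used at 2-fold only. Classes (canonical, copy, paralog) were assigned by symbol, with no sequence compared. Of the members, 96 were found in RefSeq GRCr8, which gave names, spans, -ps symbols and start windows. These are not coordinates of the deposited values, whose build differs.

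The members and lists were chosen with earlier results of these data known. Named members are those past 2-fold after insulin, the 3 highest and 3 lowest per subunit, the 3 largest differences of each sign between the controls, paralogs, and Rps6, Rpsa, Rplp0, Rplp1, Rplp2, Rps27a and Rpl41. Of the other lists, genes past 2-fold, and some of the 3 largest, are named. Others are said to have been chosen after their values were seen, or are named to describe a copy or a role. Values of some single genes are not reported here. The computation ran in Python 3.11.15 with pandas 2.3.3, numpy 2.4.6 and matplotlib 3.10.9, and was tested on simulated data. The alternatives were no floor, 5 FPKM in both libraries, log2(FPKM + 1), centring on genes at 5 FPKM or more, leaving out members with a -ps row, canonical members only, adding the FPKM of -ps rows, a 1.5-fold threshold and the mean in place of the median. A further 3 were added after the data were seen.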

Additional observations from a re-analysis of the deposited data

Results flagged for a closer look

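Rps18 had differences of opposite sign in the cell types. In the astrocyte-labelled libraries both insulin times lay above the control, with differences of log2 FPKM of 1.11 at 6 h and 1.36 at 12 h, and both passed 2-fold. In the neuron-labelled libraries both lay below it, at -0.17 and -0.33, and neither passed 2-fold. With 1 library per group the difference between the cell types was not tested, and RefSeq lists 9 -ps symbols for this gene.

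Among rows outside the members, the pseudogene row Rps2-ps2 was 2-fold higher in the neuron-labelled library at 6 h than in its control, with a difference of 1.02. Its level was 0.767 FPKM in that control, 1.55 FPKM at 6 h and 0.784 FPKM at 12 h, so it was compared only through the 6 h library. Of 19 -ps rows compared there, this was the 1 that rose, beside 1.6% of all genes, and 1 fell, beside 1.29%: Rpl36a-ps1 went from 6.91 to 2.59 FPKM (-1.41). At 12 h none of 18 rose and 1 fell, Rpl38-ps3, from 10.04 to 3.98 FPKM (-1.33). In the astrocyte-labelled libraries none of 19 rose at either time. Rpl38-ps2 fell there, at 6.09, 2.71 and 1.83 FPKM (-1.17 and -1.74), and Rpl41-ps1 fell at 12 h, from 15.8 to 7.33 FPKM (-1.11).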

How the results depend on the processing

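No paired analysis was possible because each group has 1 library, and for the same reason no library could be left out. The values here are for all members. A count was taken as unmoved within 1.5 times the reported count and a median within 0.1. By that measure 81 counts and 71 medians were unmoved, 73 counts and 5 medians moved and 1 median turned sign. The 3 alternatives below were chosen after seeing the data: canonical genes with no -ps or copy row, the FPKM of -ps and copy rows added to the canonical gene, and centring on all genes compared.

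Counts of members past 2-fold are given in the order astrocyte 6 h, 12 h and 12 h against 6 h, then neuron 6 h, 12 h and 12 h against 6 h, then the controls, and the moved ones only. With no floor the astrocyte 6 h count of higher members was 8, the astrocyte 12 h counts were 4 higher and 2 lower, and the 12 h against 6 h counts were 1 and 3. The neuron counts with no floor were 3 higher and 6 lower at 6 h, 5 lower at 12 h, and 2 and 2 at 12 h against 6 h, and between the controls 3 members were lower. With 5 FPKM in both libraries every moved count was 0, except 1 lower at neuron 6 h and 2 higher between the controls. On log2(FPKM + 1) the moved counts were 1 higher at astrocyte 6 h, 1 lower at neuron 6 h, 1 higher at neuron 12 h, 4 higher between the controls, and 0 for the other moved counts. At 1.5-fold the counts were 9 higher at astrocyte 6 h, 5 higher and 3 lower at astrocyte 12 h and 1 higher at 12 h against 6 h. They were 3 higher at neuron 6 h, 8 higher and 4 lower at neuron 12 h, 2 and 2 at 12 h against 6 h, and 37 higher and 4 lower between the controls.

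Leaving out members with a -ps row, or adding the FPKM of -ps rows, each gave 3 higher at astrocyte 6 h. Canonical members alone gave 3 higher at astrocyte 6 h, 1 lower at neuron 12 h, 4 higher between the controls, and 0 for the other moved counts. Canonical genes with no -ps or copy row gave 1, 1 and 1 for the same counts and 0 for the other moved counts, and adding all -ps and copy rows gave 1, 1 and 4, and 0 for the other moved counts.

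Centring on genes at 5 FPKM or more gave 3 lower at astrocyte 12 h and medians of 0.13 at neuron 6 h and 0.21 at neuron 12 h, and the large-subunit median at astrocyte 12 h turned to -0.032. Centring on all genes compared gave 3 lower and a median of -0.0059 at astrocyte 12 h, where the large-subunit median was -0.051. It gave medians of 0.10 and 0.18 at neuron 6 h and 12 h, and 16 higher with a median of 0.66 between the controls. Medians of the neuron and control comparisons stayed above 0 under every alternative run.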
